A study of Mus musculus with 25 samples.

Results

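The 10 genes described here, Trem2, Gpnmb, Cd9, Cd63, Mmp12, Lpl, Fabp5, Lgals3, Ctsb and Ctsd, are among those used to recognise lipid-associated macrophages. They were taken by symbol through their Ensembl identifiers and not by a cut on any measured value. The list was chosen with earlier results of these data known. All 10 were found among the 51912 genes of the immune cell count table and among the 18668 genes of the hepatocyte count table. All 10 also passed the filter on low counts in both tables, which kept 27759 and 14339 genes. The study sequenced RNA from mouse liver cells to follow IL-6, gp130 and STAT3 signalling between macrophages and hepatocytes after injury with DDC, a porphyrinogenic compound that is given in the diet and injures bile ducts and hepatocytes. All mice carried the strain label C57BL/6J 129SV, no age is given, and the livers were perfused and their cells sorted by flow cytometry.

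The immune table held 12 libraries from wild type mice, 2 for each of 6 sorted populations. These were liver macrophages, Ly6C-low monocytes, Ly6C-high monocytes, neutrophils and T cells after 1 week of DDC diet, and liver macrophages on normal diet. The hepatocyte table held 13 libraries in 5 groups. GFP hepatocytes (n = 2) and IL-6 hepatocytes (n = 3) were isolated from wild type livers to which a GFP or an IL6 plasmid had been delivered 1 week before by HTVi, a rapid large-volume injection into the tail vein. IL-6 STAT3KO hepatocytes (n = 3) came from Stat3-floxed mice given AAV-TBG-Cre for 2 weeks and the IL6 plasmid for 1 week. DDC hepatocytes (n = 2) came from Stat3-floxed mice given AAV-TBG-GFP for 2 weeks and DDC diet for 1 week, and DDC STAT3KO hepatocytes (n = 3) from Stat3-floxed mice given AAV-TBG-Cre for 2 weeks and the same diet. The TBG promoter drives Cre in hepatocytes, so Stat3 in other liver cells was not the target. DDC hepatocytes therefore differ from GFP hepatocytes in diet, genotype, viral vector and plasmid injection, and IL-6 STAT3KO differ from IL-6 hepatocytes in genotype and vector, and within each comparison these differences cannot be told apart. Nothing in the labels says that libraries of a group came from separate animals, so p-values measure the spread between libraries, which may be technical.

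Lipid-associated macrophages are a state that macrophages take on in tissues loaded with lipid or cell debris, and they are known from obese fat, atherosclerotic plaque and injured or steatotic liver. TREM2 is a surface receptor for lipids and lipoproteins that signals through the adaptor TYROBP and the kinase SYK. Its ligation is known to favour genes for lipid uptake, lysosomal breakdown and matrix turnover. The other genes fall into such roles. GPNMB is a transmembrane glycoprotein of late endosomes and the cell surface, CD9 and CD63 are tetraspanins of the cell surface and of late endosomes, MMP12 is a secreted elastase of macrophages, LPL releases fatty acids from lipoprotein triglyceride, FABP5 carries fatty acids in the cytosol, galectin-3 (Lgals3) binds glycans on the cell surface and on damaged lysosomes, and cathepsins B and D are lysosomal proteases.

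The genes lie on 8 chromosomes of GRCm38 and all are protein-coding. In GENCODE M21, Trem2 (ENSMUSG00000023992) spans chr17:48346401-48354147, Gpnmb (ENSMUSG00000029816) chr6:49036546-49070929, Cd9 (ENSMUSG00000030342) chr6:125460266-125494791 and Cd63 (ENSMUSG00000025351) chr10:128900989-128912822. Mmp12 (ENSMUSG00000049723) spans chr9:7344381-7369499, Lpl (ENSMUSG00000015568) chr8:68880491-68907448, Fabp5 (ENSMUSG00000027533) chr3:10012548-10016607 and Lgals3 (ENSMUSG00000050335) chr14:47367751-47386160. Ctsb (ENSMUSG00000021939) spans chr14:63122462-63145923 and Ctsd (ENSMUSG00000007891) chr7:142375911-142388038. Cd9 and Ctsd are on the reverse strand and the other 8 on the forward strand. Of the exonic bases of Ctsd, 34.4% are shared with the same-strand gene Gm49369, and 12.8% of those of Ctsb are shared with Fdft1, 10.7% of those of Cd9 with Gm26728 and 2.17% of those of Mmp12 with Mmp1b, all on the opposite strand. How the counting treated strand and shared bases is not given in the sources used here, so the levels of these 4 genes are uncertain to that extent. Reads from near-identical processed copies of Cd9, Cd63 and Fabp5 could likewise have been divided between rows.

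RefSeq promoter windows of build GRCm38.p6 were on hand for Gpnmb, Cd9, Ctsd, Mmp12 (2 starts), Cd63, Lgals3 and Trem2. The 250 bases before the annotated start were searched on both strands for short letters bound by factors of macrophages and lysosomes. These were the E-box CACGTG, the CLEAR core TCACGTG that holds it and is read by the lysosomal regulators TFEB and TFE3, the M-box core TCATGTG read by the related factor MITF, the PU.1 core GAGGAA, the AP-1 site TGANTCA, the GC box GGGCGG and the direct repeat known as DR1. Over all 32851 promoters of the table, the E-box was found in 6.02%, the CLEAR core in 3.13%, the M-box core in 3.25%, the PU.1 core in 23.3%, AP-1 in 6.75%, the GC box in 32.7% and DR1 in 0.0335%. The windows of Ctsd, Cd63 and Trem2 are shown because Ctsd alone of these 7 genes held the CLEAR core, Cd63 was called in 6 of the 12 comparisons below, more than any other of the 10, and Trem2 is the receptor of the state. Each reads 5' to 3' on the strand of its gene, ends at the base before the start, and has E-box, CLEAR, M-box, PU.1 and AP-1 matches in capitals.
Ctsd, chr7:142387828-142388077, reverse strand: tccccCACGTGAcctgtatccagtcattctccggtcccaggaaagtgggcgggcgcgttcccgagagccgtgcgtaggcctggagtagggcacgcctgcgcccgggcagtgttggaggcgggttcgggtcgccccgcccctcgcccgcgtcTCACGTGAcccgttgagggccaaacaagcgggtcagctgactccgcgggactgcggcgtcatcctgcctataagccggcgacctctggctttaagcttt
Cd63, chr10:128909095-128909344, forward strand: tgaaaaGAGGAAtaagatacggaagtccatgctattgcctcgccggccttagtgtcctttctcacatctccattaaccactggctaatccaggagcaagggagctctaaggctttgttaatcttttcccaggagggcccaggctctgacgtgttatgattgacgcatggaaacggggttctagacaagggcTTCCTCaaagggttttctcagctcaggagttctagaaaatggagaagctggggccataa
Trem2, chr17:48346151-48346400, forward strand: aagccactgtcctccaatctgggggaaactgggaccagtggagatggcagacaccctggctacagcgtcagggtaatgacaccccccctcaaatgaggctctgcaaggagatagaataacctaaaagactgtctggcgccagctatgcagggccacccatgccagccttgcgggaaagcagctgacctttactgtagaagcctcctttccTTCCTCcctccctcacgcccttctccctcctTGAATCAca
In Ctsd the capitals begin 245 bases before the start and again 99 bases before it, where the CLEAR core is met on both strands. In Cd63 they mark PU.1 cores that begin 244 and 59 bases before the start, the second on the other strand. In Trem2 they mark a PU.1 core 40 bases and an AP-1 match 9 bases before it. The first Mmp12 window held a PU.1 core 86 bases before its start, and the second held an M-box core at 83 and an AP-1 match at 44 bases. The windows of Gpnmb, Cd9 and Lgals3 held none of these 5, and no window of the 7 genes held a DR1. A match is a run of letters and not a shown binding site.

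The immune libraries held 3817794 to 12945663 counts and the hepatocyte libraries 13625040 to 18428988. The common biological coefficient of variation was 1.00 in the immune table and 0.313 in the hepatocyte table, so only large differences could be called among immune cells. Stat3, the targeted gene, stood at 56.2 to 87.2 CPM in DDC STAT3KO against 112 to 150 in DDC hepatocytes, and at 96.0 to 116 in IL-6 STAT3KO against 340 to 424 in IL-6 hepatocytes and 98.8 to 109 in GFP hepatocytes, counted over the whole gene and not over the deleted part alone. Il6 counts were 3.20 and 4.89 CPM in IL-6 libraries 2 and 1, 351 in IL-6 library 3, and 0.559 to 1.05 among STAT3KO libraries given the same plasmid, so that the level of Il6 itself differed between these groups. Markers went with the labels of the sorted populations except in 2 cases. The 6 Ly6C-low monocyte markers summed to 742 to 941 CPM in Ly6C-low monocytes, below their sums of 1055 to 1379 in Ly6C-high monocytes and 959 to 1118 in DDC macrophages. All 7 T cell markers were detected in the T cell libraries, at a summed 300 CPM, but Cd3e stood at only 0.24 and 1.23 CPM and the 7 Kupffer cell markers summed to 4351 and 6679 CPM there. Neutrophil library 2 was the shallowest of all.

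Cd63, Cd9 and Mmp12 rose in macrophages from DDC-fed mice over macrophages on normal diet. With library totals scaled by TMM, the trimmed mean of M-values, the other 7 were also higher in both DDC libraries without passing the test. The 10 genes together took 1.73% and 1.63% of all counts in the DDC macrophage libraries, against 0.693% and 0.819% on normal diet. On the TMM scale the 2 groups of libraries overlapped in none of the 10 genes. Over all genes tested, 23.5% were non-overlapping and higher and 32.2% non-overlapping and lower. The TMM factors themselves differed, at 0.794 and 0.812 in the DDC libraries and 1.59 and 1.20 on normal diet. Fabp5 overlapped between the groups on unscaled library totals, and also when set against macrophage marker counts of the same library. Called higher were 3 of the 10, against 0.0252% of all genes tested (7 genes, all higher). The median fitted difference over the 10 was 3.22 on the log2 scale, beside -0.62 over all genes tested. The median over all genes was -1.12 with median-of-ratios factors, -1.42 with library totals alone, -0.38 with only the compared groups and -0.03 with the stricter filter. The fitted differences of all 10 genes were above 0 under every alternative tried.

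Among the surface genes, Trem2 stood at 169 and 247 CPM (counts per 1000000 of a library total scaled by TMM, the trimmed mean of M-values) in the DDC macrophage libraries and at 13.2 and 13.3 CPM on normal diet. The groups lay far apart, yet the fitted log2 difference of 3.96 ± 0.94 (SE) was not called (edgeR quasi-likelihood test, adjusted p = 0.274). It was called without any 1 of the 4 macrophage libraries (adjusted p from 0.0011 to 0.016) and by DESeq2 (adjusted p = 0.0031). Gpnmb stood at 70.6 and 136 CPM after DDC and at 5.11 and 0.0758 CPM on normal diet, the last being 1 count. Its log2 difference of 5.31 ± 1.24 was likewise not called by edgeR (adjusted p = 0.254). It was called without any 1 of the 4 macrophage libraries (adjusted p from 1.5e-08 to 0.012) and by DESeq2 (0.0018), and the difference was 10.20 without normal diet library 1 and 4.15 without normal diet library 2.

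Cd63 had the largest ratio of means of the 10, rising from 4.32 and 6.59 CPM on normal diet to 490 and 526 CPM after DDC. The means differed 93.1-fold, with a log2 difference of 6.53 ± 0.61 (edgeR adjusted p = 0.000134). Its fellow tetraspanin Cd9 rose from 4.05 and 12.1 CPM to 173 and 196 CPM, a log2 difference of 4.51 ± 0.66 (edgeR adjusted p = 0.0258). Both libraries of each group lay close together for Cd63, while for Cd9 the normal diet libraries were further apart.

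Among the secreted and lipid-handling genes, Mmp12 stood at 24.3 and 35.8 CPM on normal diet and at 489 and 463 CPM after DDC, and its log2 difference was 3.98 ± 0.62 (edgeR adjusted p = 0.0322). The lipase Lpl stood at 1228 and 1009 CPM against 117 and 284 CPM, with a log2 difference of 2.48 ± 0.63 that was not called (edgeR adjusted p = 0.298). It was called without normal diet library 2 (log2 3.07, adjusted p = 0.029) and by DESeq2 (0.011). Fabp5 had the smallest ratio of means of the 10, 2.22-fold, with 63.6 and 52.9 CPM against 32.7 and 19.9 CPM, and was not called under any setting tried. Lgals3 stood at 1689 and 1362 CPM against 213 and 504 CPM, a log2 difference of 2.08 ± 0.59 (edgeR adjusted p = 0.341), which was called by DESeq2 (0.036) and with no filter on low counts (0.0037).

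The cathepsins were the most abundant of the 10 on either diet. Ctsb stood at 14225 and 13558 CPM after DDC against 3034 and 4955 CPM. Its log2 difference of 1.79 ± 0.56 was not called in the main edgeR fit (adjusted p = 0.372) and was called by DESeq2 (adjusted p = 0.046). With no filter on low counts edgeR called 8 of the 10, Ctsb, Trem2, Gpnmb and Lpl among them, beside 0.54% of all genes. Ctsd stood at 3199 and 2513 CPM against 904 and 1019 CPM and was called under no setting. Per kilobase of exon, the order in DDC macrophages was Ctsb (mean 2296 CPM per kb), Ctsd (1215), Lgals3 (821), Cd63 (138), Lpl (107), Cd9 (90.3), Mmp12 (65.7), Trem2 (42.1), Fabp5 (16.3) and Gpnmb (15.9). On normal diet Cd63 was ninth of the 10 by the same measure, at 1.48 CPM per kb.

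**Figure D1:**
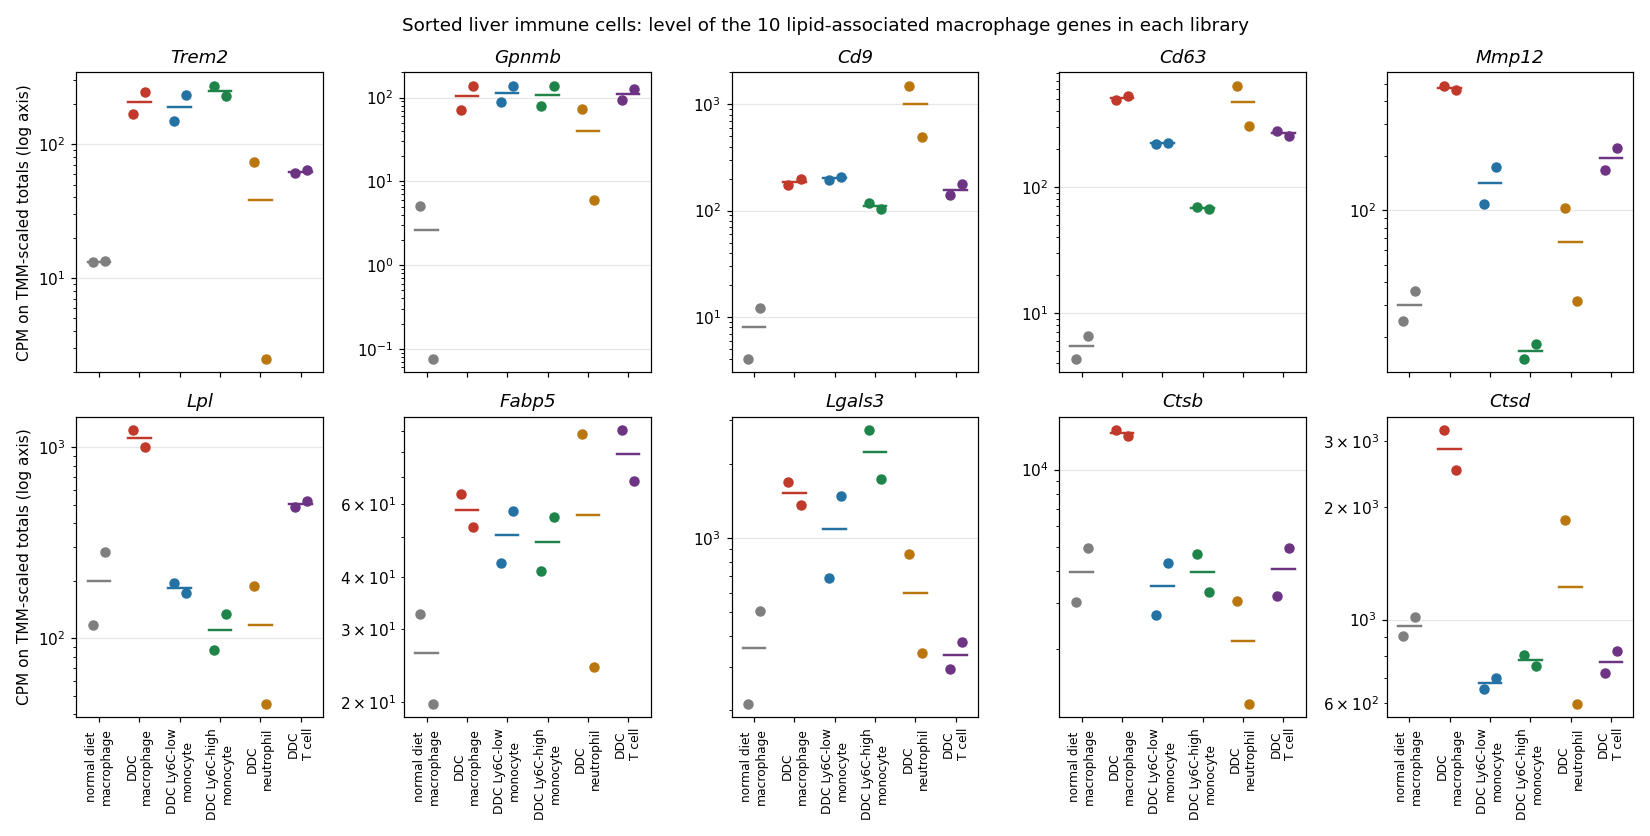
Level of each gene in CPM on TMM-scaled totals (log axis, 1 scale per panel) in the 12 immune libraries; points are libraries and bars are group means of 2 libraries. In all 10 panels both DDC macrophage libraries lie above both normal diet macrophage libraries, and for Cd63 the gap is from 4.32 and 6.59 to 490 and 526 CPM.

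Markers of other cells differed with the diet in these macrophage libraries as well. The 7 neutrophil markers summed to 205 to 295 CPM after DDC against 24.9 to 31.6 CPM, nearly all of it S100a8, with Camp at 0 in both DDC libraries. The 6 Ly6C-low monocyte markers summed to 959 to 1118 CPM against 217 to 482 CPM, and the 5 Ly6C-high monocyte markers to 95.5 to 153 against 41.3 to 48.8 CPM, and monocytes themselves carried Trem2 and Gpnmb at levels that overlap those of DDC macrophages. The 7 T cell markers summed to 63.3 to 97.0 against 29.3 to 29.7 CPM and the 4 natural killer cell markers to 86.0 to 93.3 against 33.8 to 45.7 CPM. The 5 stellate cell markers summed to 448 to 696 against 178 to 185 CPM, the 3 platelet markers to 315 to 452 against 103 to 131 CPM, the 6 hepatocyte markers to 248 to 2445 against 287 to 383.5 CPM, and the 5 endothelial markers to 439 to 460 against 1382 to 1587 CPM. The 7 Kupffer cell markers summed to 20409 to 24787 CPM after DDC and to 11799 to 17075 CPM on normal diet, and the 8 general macrophage markers to 32033 to 35460 and 15072 to 25196 CPM. In sorted pools such as these, more cells in the state and more RNA per cell cannot be told apart. Clec4f, a marker of resident Kupffer cells, stood at 9601 and 8129 CPM after DDC and at 6205 and 9006 CPM on normal diet. The part of these other cells in the differences above was not tested.

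Genes of the surrounding pathways gave no called difference between the macrophage groups. None of 11 TREM2 signalling and ligand genes, 16 other lipid-associated macrophage genes, 26 other lysosomal genes, 18 lipid uptake, storage and efflux genes or 9 MiT-TFE factors and regulators was called by edgeR. Their median log2 differences were 0.82, 1.70, 1.18, 0.92 and 0.51, beside -0.62 over all genes with the same scaling and filter. Likewise none was called of 10 tested lipoprotein lipase partners, 6 other fatty acid binding proteins, 9 tetraspanins, 4 galectins and 11 matrix metalloproteinases and inhibitors.

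Across the 5 populations of the DDC liver the 10 genes did not share 1 pattern. For Trem2 and Gpnmb the monocyte and macrophage libraries overlapped. Trem2 stood at 149 and 233 CPM in Ly6C-low and at 275 and 229 CPM in Ly6C-high monocytes, ranges that overlap that of DDC macrophages, and at 60.7 and 63.9 CPM in T cell libraries. Its lowest mean among DDC populations was in neutrophils, at 74.1 CPM in library 1 and 2.49 CPM in the shallow library 2. Gpnmb stood at 87.6 and 139 CPM in Ly6C-low monocytes, 78.8 and 137 CPM in Ly6C-high monocytes, 93.5 and 126 CPM in T cell libraries and 73.5 and 6.02 CPM in neutrophils. The macrophage, monocyte and T cell libraries overlapped each other for Gpnmb, and neutrophils overlapped macrophages through library 1 alone.

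For Cd63, Mmp12 and Lpl both macrophage libraries lay above all 4 monocyte libraries. Cd63 stood at 218 and 224 CPM in Ly6C-low and 69.2 and 67.1 CPM in Ly6C-high monocytes, so that macrophages, Ly6C-low and Ly6C-high monocytes followed each other without overlap. Mmp12 stood at 109 and 172 CPM in Ly6C-low and 15.1 and 18.2 CPM in Ly6C-high monocytes, in the same order. Lpl stood at 195 and 173 CPM and at 87.3 and 135 CPM, again below the macrophage values of 1228 and 1009 CPM.

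Against Ly6C-high monocytes, 3 of the 10 were called, all higher in macrophages, beside 0.526% of all genes tested (0.389% higher). The log2 differences were 2.90 ± 0.51 for Cd63 (edgeR adjusted p = 0.0114), 4.83 ± 0.65 for Mmp12 (adjusted p = 0.000894) and 3.33 ± 0.65 for Lpl (adjusted p = 0.0237). These 3 were called under every alternative tried, and 0.137% of all genes were called lower. The median difference over the 10 was 1.27, beside -0.17 over all genes. The libraries of 6 genes were non-overlapping and higher, which held for 17.2% of all genes. Lgals3 was the 1 gene whose monocyte libraries, at 2726 and 1730 CPM, lay wholly above the macrophage ones, as for 22.9% of all genes.

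Against Ly6C-low monocytes none of the 10 was called by edgeR, beside 0.238% of all genes (66 genes, 0.191% higher and 0.0468% lower). The median difference over the 10 was 0.84, beside -0.09 over all genes. At an unadjusted p under 0.05 there were 1293 genes. DESeq2 called 4 of the 10, beside 2.95% of the genes it tested. The largest fitted differences were 2.60 ± 0.63 for Lpl (edgeR adjusted p = 0.162), 2.08 ± 0.53 for Ctsd (0.218) and 1.98 ± 0.56 for Ctsb (0.334). All 3, with Cd63 and Mmp12, had non-overlapping libraries, higher in macrophages, as did 18.8% of all genes, and no member was non-overlapping and lower, beside 20.6%. Lpl was called without DDC macrophage library 2 (log2 2.69, adjusted p = 0.031). Between Ly6C-high and Ly6C-low monocytes there were 0 calls among the 10 and 0% of all genes by edgeR. Of all genes, 461 had an unadjusted p under 0.05. DESeq2 called 2 of the 10, beside 0.268% of the genes it tested. They were Mmp12 (log2 -3.08, DESeq2 adjusted p = 1.6e-07) and Cd63 (log2 -1.72, adjusted p = 0.00068), both lower in Ly6C-high. There 2 of the 10 were non-overlapping and higher and 4 lower, beside 16.3% and 14.4% of all genes.

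Cd9 had its highest values in neutrophils. It stood at 1499 and 493 CPM there, above every other immune library, and Cd63 at 639 and 306 CPM, a range that contains the macrophage values. The log2 difference of macrophages against neutrophils for Cd9 was -2.43 ± 0.60 (edgeR adjusted p = 0.061). It was called without neutrophil library 1 (log2 -1.56, adjusted p = 0.037) and without neutrophil library 2 (log2 -3.06, adjusted p = 0.0001). Called higher in macrophages were Mmp12 (log2 2.82 ± 0.59, adjusted p = 0.0244), Lpl (3.25 ± 0.65, 0.0176) and Ctsb (2.70 ± 0.58, 0.0299). That is 3 of the 10 beside 1.12% of all genes (0.522% higher, 0.602% lower). None was called when the 4 libraries were fitted alone (adjusted p = 0.091, 0.096 and 0.19), and Ctsb was not called in a fit without the T cell libraries (0.062). Non-overlapping were 6 genes higher in macrophages and 1 lower, beside 22.7% and 18.3% of all genes. Without neutrophil library 1, which left only the shallow library 2 with Trem2 at 2.49 CPM, the Trem2 difference was log2 6.24.

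In T cell libraries the standing of the 10 genes differed from gene to gene. Lpl stood at 488 and 525 CPM and Mmp12 at 168 and 222 CPM there, below macrophages and, for Lpl, above both monocyte groups. Fabp5 had its highest mean of all populations in T cell libraries, at 90.5 and 68.4 CPM, within the range of neutrophils at 88.5 and 24.3 CPM but for the first value. Lgals3 had its lowest mean there, at 295 and 379 CPM. By edgeR none of the 10 was called between macrophages and T cell libraries, beside 0% of all genes (2601 genes at an unadjusted p under 0.05). DESeq2 called 3, Lgals3, Ctsb and Ctsd, beside 4.21% of the genes it tested. Higher in macrophages without overlap were 7 genes and lower 1, beside 23.3% and 11.4% of all genes. As given above, these libraries also held 4351 and 6679 CPM of Kupffer cell markers, and the part of macrophage RNA in their levels was not tested.

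Some genes of the surrounding pathways were called between macrophages and monocytes. Against Ly6C-high monocytes macrophages were higher in the liver X receptor Nr1h3 (814 ± 101 against 74.0 ± 15.4 CPM, SD, n = 2 and 2; log2 3.46 ± 0.57, edgeR adjusted p = 0.00599), the cathepsin Ctsf (155 ± 38.9 against 7.71 ± 2.04 CPM; log2 4.33 ± 0.71, adjusted p = 0.00586) and Fabp7 (648 ± 108 against 18.9 ± 3.26 CPM; log2 5.10 ± 0.87, adjusted p = 0.00852). The same 3 were higher than in Ly6C-low monocytes, with log2 differences of 2.81, 4.03 and 4.30 and adjusted p-values of 0.0403, 0.015 and 0.0382. The calls of Nr1h3 and Ctsf against Ly6C-low monocytes were lost without Ly6C-low library 1 (adjusted p = 0.51 and 0.11). In all, macrophages exceeded Ly6C-high monocytes in 1 of 11 TREM2 signalling and ligand genes, 2 of 16 other lipid-associated macrophage genes and 1 of 26 lysosomal genes. They were also higher in 2 of 18 lipid uptake genes, 1 of 6 fatty acid binding proteins and 1 of 9 tetraspanins, and lower in 1 of 11 metalloproteinases. Over all genes, 0.389% were called higher and 0.137% lower. The gene of the TREM2 list was Clu, at 259 ± 301 CPM in macrophages. Its call was lost with only the compared groups, without DDC macrophage library 1, with the stricter filter and with robust estimation of the spread. Cd36, which is in 2 of these lists, was not called without DDC macrophage library 1 (adjusted p = 0.077) or Ly6C-high library 1 (0.32). Against Ly6C-low monocytes Nr1h3, Ctsf and Fabp7 were the only calls in the lists, beside 0.191% of all genes called higher.

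In hepatocytes the 10 genes took 0.0596% to 0.174% of counts. In GFP hepatocytes the cathepsins led too, at a mean of 83.0 CPM per kb for Ctsb and 43.2 for Ctsd, and Trem2 came last at 0.0472. In IL-6 hepatocytes Cd63 (57.2) stood between Ctsb (102) and Ctsd (47.2), and Mmp12 (0.0893) stood below Trem2 (0.138). Trem2 had 5 counts or fewer in 6 of the 13 libraries, with 0 counts in DDC STAT3KO library 3, which allows up to 0.224 CPM, so that its hepatocyte values rest on few reads.

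Cd63, Fabp5 and Cd9 rose in hepatocytes with the IL6 plasmid. Cd63 stood at 1.92 and 4.61 CPM in GFP hepatocytes and at 290, 226 and 115 CPM with the IL6 plasmid. The means differed 64.5-fold and the log2 difference was 6.01 ± 1.02 (edgeR adjusted p = 0.00145). Fabp5 stood at 18.8 and 12.4 CPM against 107, 75.8 and 54.2 CPM, 5.07-fold higher by the means (log2 2.34 ± 0.69, edgeR adjusted p = 0.0267). Cd9 stood at 10.6 and 9.83 CPM against 53.7, 37.2 and 31.7 CPM, means of 10.2 ± 0.558 (SD, n = 2) and 40.9 ± 11.5 (n = 3) (log2 2.00 ± 0.67, adjusted p = 0.0444). These 3 of the 10 compare with 25.9% of all genes called (13.7% higher, 12.2% lower). The median difference over the 10 was 1.10, beside 0.04 over all genes. Cd9 was also not called with library totals (adjusted p = 0.072) or with robust estimation of the spread (0.056). Without GFP library 1 or 2 or IL-6 library 1 or 2, Cd63 alone was called, with Fabp5 at adjusted p-values of 0.1, 0.18, 0.074 and 0.051 and Cd9 at 0.18, 0.2, 0.1 and 0.071.

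The other 7 were not called. Lgals3 stood at 0.512 and 0.619 CPM (8 and 9 counts) in GFP hepatocytes and at 3.79, 4.37 and 2.81 CPM with IL-6, with no overlap (log2 2.68 ± 1.15, edgeR adjusted p = 0.106). Mmp12 and Gpnmb stayed low, at 0.436 to 0.947 and 0.678 to 2.87 CPM with IL-6. Ctsb stood at 538 to 676 CPM against 480 to 524 CPM, and Ctsd at 103 to 123 against 100 to 103 CPM. Lpl spread over 8.98 to 75.8 CPM with IL-6 and overlapped the GFP values of 18.2 and 33.9 CPM. The libraries of 7 genes were non-overlapping and higher, beside 31.4% of all genes, and none was lower, beside 29.2%.

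Cd63 and Fabp5 were lower in STAT3KO than in STAT3-replete hepatocytes under IL-6. Cd63 stood at 1.98, 10.3 and 3.21 CPM in IL-6 STAT3KO hepatocytes, 40.8-fold below the IL-6 mean (log2 -5.35 ± 0.82, edgeR adjusted p = 0.00058). Fabp5 stood at 2.78, 12.9 and 3.09 CPM, 12.7-fold below (log2 -3.66 ± 0.63, adjusted p = 0.00131). Both groups of libraries were fully apart for these genes and for Cd9, at 7.30, 22.5 and 11.0 CPM, which was not called (log2 -1.59 ± 0.56, adjusted p = 0.0558). Cd9 was called without IL-6 STAT3KO library 2 (log2 -2.16, adjusted p = 0.028) and by DESeq2 (adjusted p = 0.014). Called lower were 2 of the 10, beside 26.4% of all genes (13% higher, 13.4% lower), and 3 were non-overlapping and lower, beside 22.9% (22% were higher). The calls of Cd63 and Fabp5 held under every alternative tried. Library 2 of the IL-6 STAT3KO group had the highest value of its group for all 10 genes, among them Lpl at 224 CPM against 12.4 and 17.9 CPM and Mmp12 at 10.7 against 0.292 and 0.309 CPM, and its macrophage markers summed to 172 CPM against 67.3 and 117. Against GFP hepatocytes, none of the 10 was called in IL-6 STAT3KO hepatocytes, beside 3.12% of all genes (2.26% higher, 0.865% lower). At an unadjusted p under 0.05 there were 2743 genes. DESeq2 called 1, Lgals3 (adjusted p = 0.046), beside 8.07% of the genes it tested. Non-overlapping and higher were 3 of the 10, beside 22.2% of all genes, and none was lower, beside 22.4%. IL-6 against GFP and IL-6 STAT3KO against IL-6 share the IL-6 libraries, so the opposite signs of Cd63 and Fabp5 in them are not independent.

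Other genes of these pathways also differed between IL-6 and GFP hepatocytes. Of 26 other lysosomal genes 6 were higher and none lower, beside 13.7% of all genes called higher. Among them were the dipeptidyl peptidase Ctsc (715 ± 94.9 CPM, SD, n = 3, against 44.4 ± 9.84, n = 2; log2 4.01 ± 0.51, edgeR adjusted p = 0.000218) and progranulin, Grn (414 ± 105 against 114 ± 7.87 CPM; log2 1.86 ± 0.34, adjusted p = 0.00215). Of 11 lipoprotein lipase partners 4 were lower, beside 12.2% of all genes, and none higher, among them the hepatic lipase Lipc (6.59 ± 2.02 against 237 ± 14.7 CPM; log2 -5.17 ± 0.34, adjusted p = 5.9e-06), the endothelial lipase Lipg (log2 -6.17 ± 0.79, adjusted p = 0.000233) and the LPL inhibitor Apoc3 (log2 -1.70 ± 0.26, adjusted p = 0.000713). The liver fatty acid binding protein Fabp1 fell by 3.70 on the log2 scale, to 193 ± 119 from 2509 ± 356 CPM (adjusted p = 0.00166), while Fabp5 rose. Of 15 other lipid-associated macrophage genes 4 were higher and 2 lower, with Spp1, osteopontin, at 6521 ± 4275 against 2.55 ± 1.25 CPM (log2 11.32 ± 2.06, adjusted p = 0.00214). Of 10 other tetraspanins 3 were higher, led by Tspan14 (65.7 ± 11.1 against 15.1 ± 2.09 CPM; log2 2.12 ± 0.21, adjusted p = 5.8e-05). Of 9 TREM2 signalling and ligand genes 4 were higher and 1 lower, beside 13.7% and 12.2% of all genes. Among the higher were Adam10 (log2 0.81 ± 0.24, edgeR adjusted p = 0.0282) and Syk (2.41 ± 0.74, 0.0306), and the lower was Apoe (-1.34 ± 0.42, 0.034).

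In IL-6 STAT3KO against IL-6 hepatocytes calls in these lists were as follows. Called lower were 4 of 26 lysosomal genes, beside 13.4% of all genes, with Ctsc at log2 -3.75 ± 0.42 and Grn at -1.25 ± 0.29, and none was higher. Called higher were 4 of 11 lipoprotein lipase partners, beside 13% of all genes, with Lipc at log2 4.58 ± 0.32, Lipg at 6.14 ± 0.77 and Apoc3 at 1.33 ± 0.24. Spp1 had a log2 difference of -8.05 ± 1.49, Tspan14 of -2.15 ± 0.18 and Fabp1 of 2.57 ± 0.59, all called by edgeR. None of 9 TREM2 signalling and ligand genes and 4 galectins was called.

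**Figure D2:**
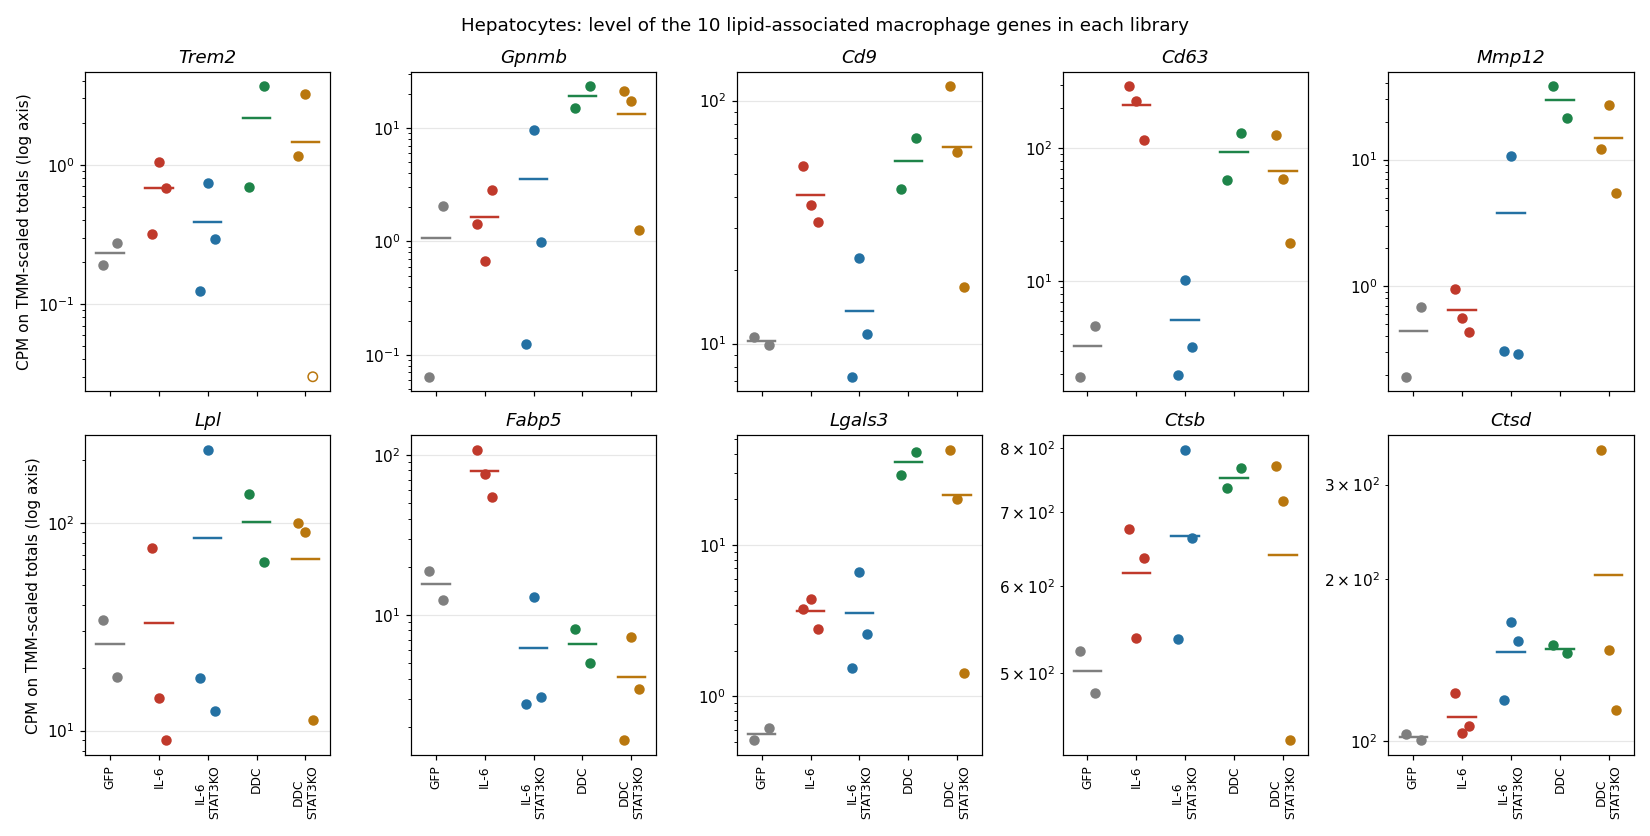
Level of each gene in CPM on TMM-scaled totals (log axis, 1 scale per panel) in the 13 hepatocyte libraries; points are libraries, bars are group means (n = 2 or 3), and the open circle marks a library with 0 counts. Cd63 and Fabp5 are high in the 3 IL-6 libraries and low in the 3 IL-6 STAT3KO libraries, while Lgals3, Gpnmb and Mmp12 are highest by mean in DDC hepatocytes.

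Cd63, Lgals3, Mmp12 and Cd9 were higher in DDC than in GFP hepatocytes, the controls that the IL-6 comparison used too. Cd63 stood at 57.3 and 129 CPM against 1.92 and 4.61 CPM in GFP hepatocytes (log2 4.84 ± 0.99, edgeR adjusted p = 0.00822). Lgals3 stood at 28.9 and 41.1 CPM against 0.512 and 0.619 CPM, 62.0-fold higher (log2 5.94 ± 1.24, adjusted p = 0.00894). Mmp12 stood at 37.9 and 21.2 CPM against 0.192 and 0.688 CPM, which were 3 and 10 counts, 67.3-fold higher (log2 6.07 ± 1.58, adjusted p = 0.0221). Cd9 stood at 43.1 and 69.9 CPM, 5.52-fold above the GFP mean (log2 2.47 ± 0.71, adjusted p = 0.0324). Called higher were 4 of the 10, beside 18.6% of all genes (10.4% higher, 8.29% lower). The median difference over the 10 was 2.83, beside 0.02 over all genes. All 4 calls were lost without either GFP library, where the adjusted p-values were 0.079 and 0.052 for Cd63, 0.079 and 0.079 for Lgals3, 0.15 and 0.11 for Mmp12 and 0.15 and 0.17 for Cd9. Without DDC hepatocyte library 1 or 2, Cd63 and Lgals3 alone were called.

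Gpnmb stood at 14.9 and 23.3 CPM in DDC against 0.064 and 2.06 CPM in GFP hepatocytes (log2 4.18 ± 1.65, edgeR adjusted p = 0.0949), the lower GFP value being 1 count. Trem2 stood at 0.689 and 3.65 CPM against 0.192 and 0.275 CPM and was not called. Lpl stood at 137 and 64.7 CPM against 33.9 and 18.2 CPM, Ctsb at 737 and 768 against 524 and 480 CPM, and Ctsd at 151 and 146 against 103 and 100 CPM. None of these 3 was called in the fit over all 5 groups. Fabp5 went the other way, at 8.11 and 4.99 CPM against 18.8 and 12.4 CPM (log2 -1.26 ± 0.72, adjusted p = 0.237). So 9 genes were non-overlapping and higher and 1 non-overlapping and lower, beside 36.5% and 34.8% of all genes. When the 4 libraries were fitted alone, 9 of the 10 were called, beside 33.6% of all genes tested in that fit.

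Around these genes, 11 of 15 other lipid-associated macrophage genes were called higher in DDC than in GFP hepatocytes and 1 lower, beside 10.4% of all genes called higher. Among them the growth factor Csf1 stood at 29.1 ± 4.29 against 2.72 ± 1.13 CPM (log2 3.41 ± 0.47, edgeR adjusted p = 0.00137) and galectin-1, Lgals1, at 16.04 ± 5.52 against 1.22 ± 0.172 CPM (log2 3.71 ± 0.66, adjusted p = 0.00428). The call of Lgals1 was lost without GFP library 2 (adjusted p = 0.053), and that of Csf1 held under every alternative. Of 9 TREM2 signalling and ligand genes 5 were higher, among them the kinase Syk (log2 3.97 ± 0.78, adjusted p = 0.0068), whose call was lost without either GFP library. Of 26 lysosomal genes 6 were higher, with the macrophage sialomucin Cd68 at 18.9 ± 6.38 against 1.24 ± 0.673 CPM (log2 3.92 ± 0.77, adjusted p = 0.0068), lost without GFP library 1 (adjusted p = 0.072). Several of these genes are themselves expressed mainly by myeloid cells.

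Markers of macrophages and of some other non-hepatocyte cells were higher in the same libraries. The 8 macrophage markers, all detected in every hepatocyte library, summed to 31.5 to 36.7 CPM in GFP, 65.4 to 101 in IL-6, 67.3 to 172 in IL-6 STAT3KO, 146 to 272 in DDC and 48.6 to 254 in DDC STAT3KO hepatocytes. The 7 Kupffer cell markers summed to 22.0 to 28.5, 62.8 to 144, 95.2 to 218, 216 to 353 and 40.8 to 304 CPM in the same order. Neutrophil markers summed to 1.43 to 16.02 CPM with IL-6 and were 0 in GFP hepatocytes. The 5 stellate cell markers summed to 64.4 to 76.2 in GFP, 51.7 to 113 in IL-6, 51.7 to 168 in IL-6 STAT3KO, 189 to 315 in DDC and 86.2 to 270 CPM in DDC STAT3KO hepatocytes. The 5 endothelial markers summed to 101 to 120 in GFP, 31.9 to 117 in IL-6 and 141 to 168 CPM in DDC hepatocytes. The 5 Ly6C-high monocyte markers summed to 0.192 to 0.619, 2.99 to 14.7 and 3.98 to 6.59 CPM in these 3 groups. Sox9, a marker of cholangiocytes that injured hepatocytes can also express, stood at 87.2 to 96.0 CPM with IL-6, 29.4 and 31.6 in DDC, and 2.13 and 3.01 in GFP hepatocytes. Krt7 was at 0.123 CPM or less in all of these. Of 4 cholangiocyte markers 3 were counted in hepatocytes. They summed to 88.2 to 97.8 CPM with IL-6 (2 to 3 detected), 30.0 to 33.6 in DDC (3 detected) and 2.13 to 3.01 in GFP hepatocytes (1 detected).

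A ratio taken within each library sets the members against those macrophage markers. Per 1000 counts of the 8 markers, DDC macrophages held 13.8 and 16.4 counts of Cd63, whereas IL-6 hepatocytes held 1760 to 2887, at least 107 times as many, and DDC hepatocytes 393 and 476. The highest ratio of any immune library was 172, in neutrophils. For Fabp5 the ratio was at most 1.79 in DDC macrophages, 782 to 1065 in IL-6 hepatocytes and already 337 and 598 in GFP hepatocytes. Its highest value in any immune library was 23.1, in T cell libraries. Ctsb, Ctsd and Lpl also had high ratios in GFP hepatocytes, at 13081 to 16640, 2728 to 3264 and 494 to 1077. In DDC macrophages they reached at most 423, 90.2 and 34.6, and in any immune library 823, 447 and 125. The ratio is large where marker counts are few, and GFP hepatocytes held only 492 and 534 of them. In CPM, Cd63 was lower in IL-6 hepatocytes (115 to 290) than in DDC macrophages (490 to 526). Fabp5 overlapped there, at 54.2 to 107 against 52.9 to 63.6 CPM.

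For Cd9 the ratio was 268 and 337 in GFP hepatocytes and 257 and 296 in DDC hepatocytes, which overlap, 383 to 534 in IL-6 and 93.5 to 130 in IL-6 STAT3KO hepatocytes. Trem2 and Lgals3 read differently from Cd63 by the same ratio. For Trem2 it was 4.73 and 13.4 in DDC hepatocytes and 3.14 to 10.8 in IL-6 hepatocytes, around the values of DDC macrophages, which reached 7.72. Ly6C-high monocytes reached 38.4 for Trem2. For Lgals3 it was 37.6 to 45.1 in IL-6 hepatocytes, at most 47.6 in DDC macrophages, and 151 and 199 in DDC hepatocytes, while Ly6C-high monocytes reached 381. Mmp12 gave 260 and 78.2 in DDC hepatocytes against at most 14.4 in DDC macrophages, and Gpnmb 103 and 85.9 against at most 4.26. The T cell libraries reached 42.9 for Mmp12 and 23.9 for Gpnmb, the highest of any immune library. In GFP hepatocytes the Gpnmb ratio was 2.03 and 56.2 and the Mmp12 ratio 6.10 and 18.7. The immune and hepatocyte tables were counted and deposited separately. The part of RNA from macrophages or other non-hepatocyte cells in the hepatocyte levels was not tested.

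**Figure D3:**
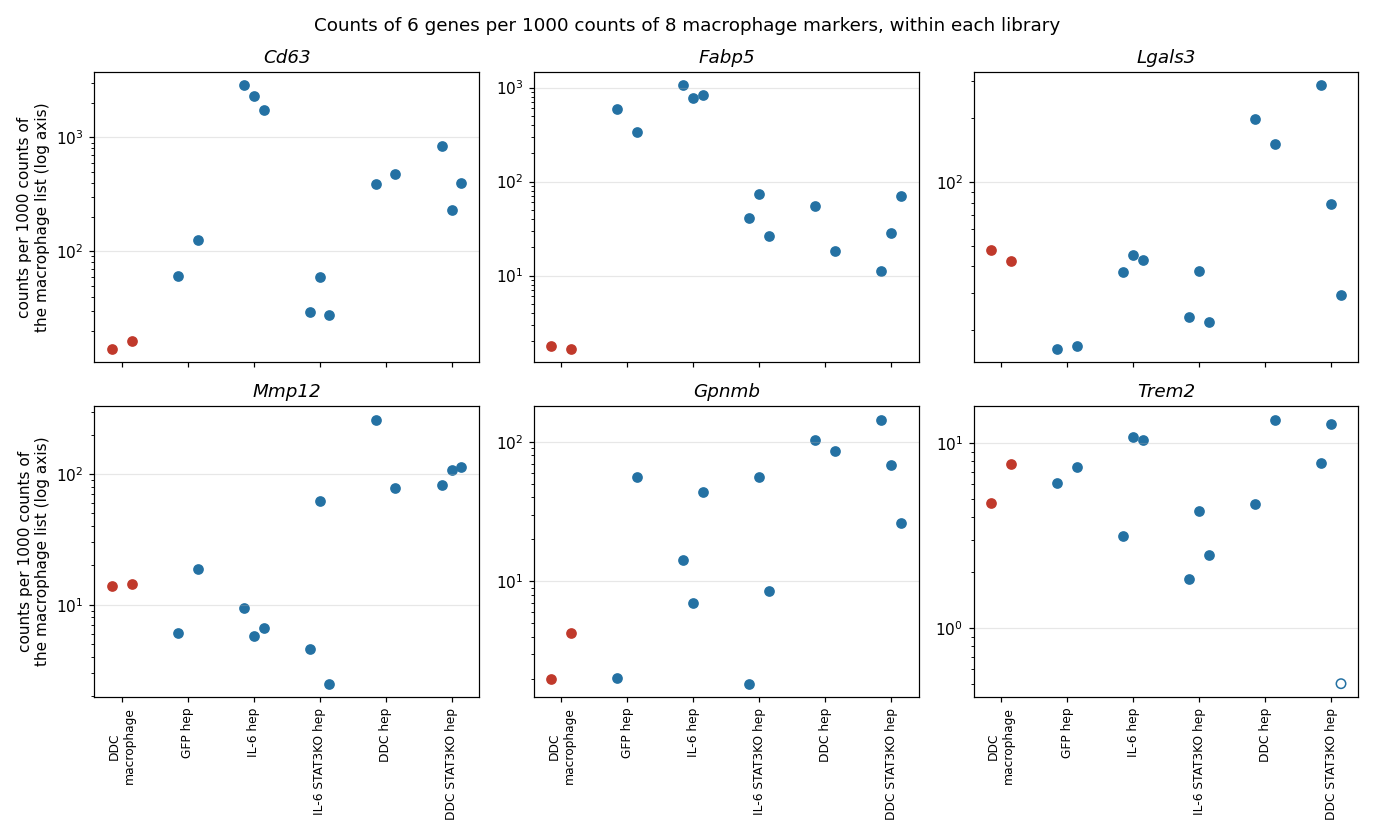
Counts of 6 genes per 1000 counts of the 8 macrophage markers in the same library (log axis) for DDC macrophages (red, n = 2) and the 5 hepatocyte groups (blue, n = 2 or 3); the open circle marks 0 counts. Cd63 in IL-6 hepatocytes lies at 1760 to 2887 against 13.8 and 16.4 in DDC macrophages. Trem2 in GFP, IL-6 and DDC hepatocytes lies around the macrophage values of 4.76 and 7.72. It lies below them in IL-6 STAT3KO hepatocytes, at 1.84 to 4.32, and at 0 to 12.7 in DDC STAT3KO hepatocytes.

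Under DDC diet the STAT3KO label went with no called difference. None of the 10 was called between DDC STAT3KO and DDC hepatocytes, beside 0% of all genes by edgeR, where 803 genes had an unadjusted p under 0.05 and DESeq2 called 10 genes, none of them among these. Cd63 stood at 125, 59.0 and 19.2 CPM, Cd9 at 114, 61.5 and 17.1 CPM, Lgals3 at 42.3, 19.97 and 1.42 CPM, Gpnmb at 21.3, 17.4 and 1.27 CPM and Mmp12 at 12.1, 27.1 and 5.46 CPM in the STAT3KO libraries 1 to 3. The groups overlapped for all 10 genes, while 9.34% of all genes were non-overlapping and higher and 9% lower. Library 3 was lowest of its group for 9 of the 10, and it also held the lowest macrophage marker sum of the group, 48.6 CPM.

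The STAT3KO difference of Cd63 itself differed between the DDC and IL-6 settings. The difference of the 2 knockout effects, DDC minus IL-6, was 4.89 ± 1.11 on the log2 scale (edgeR adjusted p = 0.0191). Cd63 was 1 call among the 10, beside 8.28% of all genes in this comparison (4.08% higher, 4.2% lower). It was not called without IL-6 STAT3KO library 3 (adjusted p = 0.051), DDC hepatocyte library 1 (0.1) or DDC hepatocyte library 2 (0.062). For Fabp5 the same difference was 3.01 ± 0.92 (adjusted p = 0.0652), and it was called without IL-6 STAT3KO library 2 (adjusted p = 0.0087) or DDC STAT3KO library 1 (0.044). For Cd9 it was 1.78 ± 0.83 (adjusted p = 0.22), called without DDC STAT3KO library 3 (adjusted p = 0.038).

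**Figure D4:**
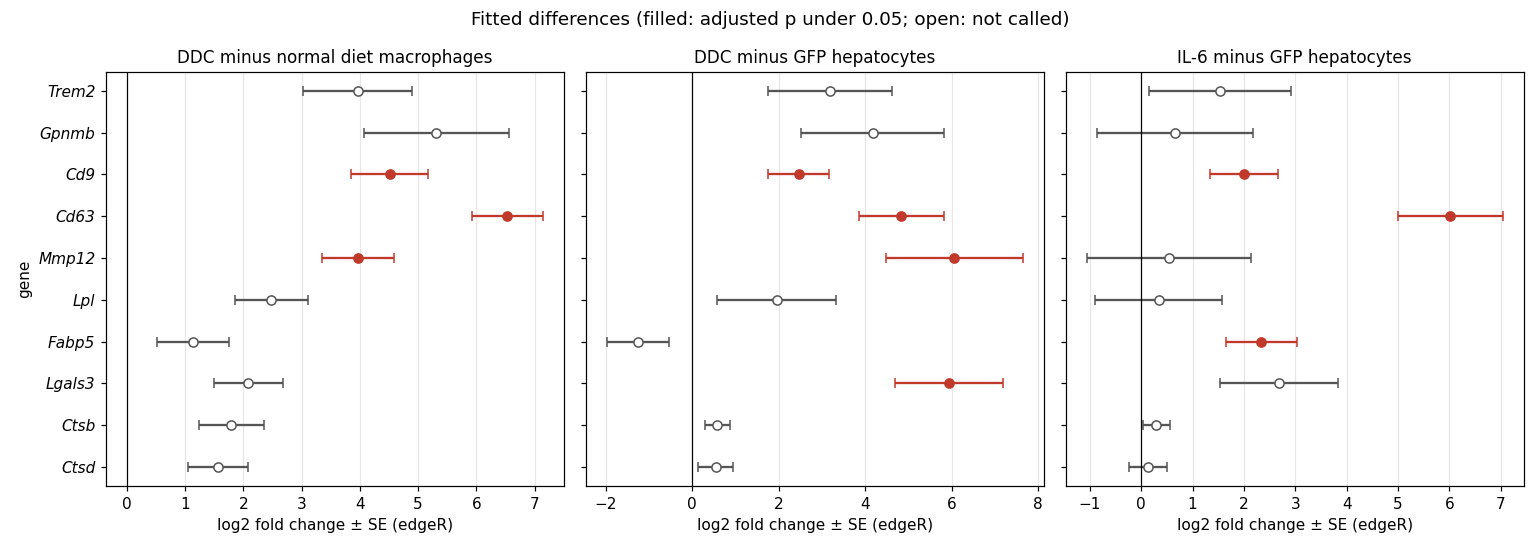
Fitted log2 fold changes with SE from edgeR (x axis) for the 10 genes (y axis) in 3 comparisons; filled red points passed an adjusted p under 0.05 over all genes tested and open points did not. Cd63 and Cd9 are filled in all 3 panels, Mmp12 in the macrophage and DDC hepatocyte panels, Lgals3 in the DDC hepatocyte panel and Fabp5 in the IL-6 panel; the last 2 panels share the GFP libraries.

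The genes whose levels ran closest to the members are given as a description, over libraries that fall into groups and share depth scaling. Over the 12 immune libraries, among 6299 named genes averaging 20 CPM or more, the genes most like Trem2 on the log2(CPM + 1) scale were Pdia6 (Pearson r = 0.97), Apobec1, Ddx24, Rtcb and Slc39a11, and those most like Gpnmb were Smim20 (r = 0.96), Tspan32, Mrps7, Utp3 and Abraxas2. Over the 13 hepatocyte libraries, those most like Cd63 were S100a11 (r = 0.97), Cd14, Ly6d, Tpd52 and Itga6. Those most like Lgals3 were Vcam1 (r = 0.96), Anxa5, Ahnak, Mapk3 and Cdc42se1.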

How the data were processed

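RNA was sequenced from 12 sorted immune and 13 hepatocyte libraries. The authors deposited raw read counts per Ensembl gene in 2 tables, and the submitters' processing notes name mm10, STAR, HTSeq and DESeq2 without versions. The strand setting is not given in the sources used here. From those counts, genes were kept by filterByExpr, scaled by TMM and tested with edgeR 4.0.16 (quasi-likelihood F test, R 4.3.3, limma 3.58.1) in 1 fit per table with 1 term per group. P-values were adjusted by Benjamini-Hochberg over every gene tested, and a call is an adjusted p under 0.05. The SE is the log2 fold change divided by the square root of F. The EGFP reading stayed out of totals and tests. DESeq2 1.42.0 and the other alternatives are given in the closing section. Symbols and coordinates come from GENCODE M21, promoters from RefSeq. Motifs were searched in the 250 bases before each start.

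The 10 genes and all gene lists were chosen with earlier results of these data known. Every one of the 10 is described, up to 4 called genes with the smallest adjusted p are named per list, and for likeness the 5 genes with the highest Pearson correlation. The lists were counted and not tested as sets. A stricter filter and robust estimation of the spread were added after seeing the data.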

Additional observations from a re-analysis of the deposited data

Results flagged for a closer look

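The difference between the STAT3KO effects under DDC and under IL-6 was 4.89 on the log2 scale for Cd63 (edgeR's quasi-likelihood test, adjusted p = 0.0191). Cd63 stood at 57.3 and 129 CPM in DDC and at 125, 59.0 and 19.2 CPM in DDC STAT3KO hepatocytes, against 290, 226 and 115 CPM in IL-6 and 1.98, 10.3 and 3.21 CPM in IL-6 STAT3KO hepatocytes. The call was lost without IL-6 STAT3KO library 3 or either DDC hepatocyte library, as given in the report. Genotype, viral vector and the level of Il6 differ between these groups and cannot be told apart from Stat3.

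EGFP was counted in the tables and entered no comparison. It stood at 424 reads per 1000000 counts in IL-6 hepatocyte library 3, while IL-6 libraries 1 and 2 had 7.08 and 5.06 and GFP hepatocytes 2.12 and 2.38. In the 2 DDC hepatocyte libraries, whose mice received AAV-TBG-GFP, it stood at 1307 and 1494. The same IL-6 library held 351 CPM of Il6. Cd63 was 115 CPM in it, the lowest of its group, and the calls of Cd63, Fabp5 and Cd9 against GFP hepatocytes were also made without it.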

How the results depend on the processing

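Of 120 pairs of a gene and a comparison, 19 were called, 9 of these under every alternative, and none of the 50 called under any alternative changed sign. Against normal diet macrophages 3 genes were called, and 8 with DESeq2, 8 with no filter and 5 to 6 leaving out 1 library. Against Ly6C-low monocytes there were 0, and 3 with median-of-ratios factors, 1 with library totals, 3 with no filter, 4 with only the compared groups, 4 with DESeq2 and 0 to 1 leaving out 1 library. Against Ly6C-high monocytes there were 3, and 5 with median-of-ratios factors, library totals, no filter or DESeq2. Against neutrophils there were 3, and 5 with no filter or DESeq2, 0 with only the compared groups and 3 to 8 leaving out 1 library. Against T cells there were 0, and 3 with no filter or DESeq2. Between monocytes there were 0, and 1 with no filter or only the compared groups and 2 with DESeq2. In hepatocytes, IL-6 against GFP gave 3 (1 to 3 leaving out 1 library), IL-6 STAT3KO against GFP 0 (1 with DESeq2), DDC against GFP 4 (9 with only the compared groups, 0 to 2 leaving out 1 library) and the difference of STAT3KO effects 1 (2 with DESeq2, 0 to 2 leaving out 1 library). Where a group was left with 1 library, it was assumed to vary like the other groups. The cause of these changes was not tested. Of the genes it tested, DESeq2 called 3.32% against normal diet macrophages, 2.95% against Ly6C-low and 4.39% against Ly6C-high monocytes. It called 13.2% against neutrophils, 4.21% against T cells and 0.268% between monocytes. With no filter the shares were 0.54%, 0.639%, 0.985%, 2.05%, 0.614% and 0.166% in the same order. With median-of-ratios factors and with library totals they were 0.407% and 0.367% against Ly6C-low and 0.742% and 0.674% against Ly6C-high monocytes. With only the compared groups they were 2.21% against Ly6C-low monocytes, 0.457% against neutrophils, 0.144% between monocytes and 33.6% for DDC against GFP hepatocytes. For the difference of STAT3KO effects DESeq2 called 13.5%.

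Over all genes, the number called ran from 3 to 636 for DDC against normal diet macrophages (7 as reported), 66 to 454 against Ly6C-low (66), 146 to 628 against Ly6C-high monocytes (146), 74 to 3046 against neutrophils (312), 0 to 1323 against T cells (0) and 0 to 74 between monocytes (0). In hepatocytes it ran from 1651 to 4392 for IL-6 against GFP (3719), 89 to 1132 for IL-6 STAT3KO against GFP (448), 607 to 4415 for DDC against GFP (2674), 0 to 10 for DDC STAT3KO against DDC (0) and 459 to 1891 for the difference of STAT3KO effects (1187).

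With replicate numbers as a replicate block, 2 genes were called for the difference of STAT3KO effects in place of 1, beside 9.05% of all genes. Against neutrophils 4 were called in place of 3, beside 1.37%, and for IL-6 against GFP hepatocytes 4 in place of 3, beside 28.6%. For IL-6 STAT3KO against IL-6 hepatocytes 3 were called in place of 2, beside 26.7%. Libraries sharing a number deviated together with r over 0.1 in 7 of 23 hepatocyte pairs, beside 7 of 44 with different numbers, and in 2 of 30 immune pairs, where groups of 2 make the values for same and different numbers mirror each other. These values cannot decide whether the numbers pair libraries, because groups of 2, which also include GFP and DDC hepatocytes, force such mirror values. The labels do not say that the numbers pair libraries, so the main fit held no block.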
